A study of Panonychus citri with 4 samples.

Results

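The conserved neural miRNA families miR-7, miR-137, miR-153 and miR-210 were followed through the life cycle of the citrus red mite (Panonychus citri), a plant-feeding spider mite. Their members are all listed miRNAs whose name is miR-7, miR-137, miR-153 or miR-210, alone or followed by a letter, a hyphen suffix or both. The rule found 15 of the 594 names listed over the 4 libraries: 6 of miR-7, 3 of miR-137, 2 of miR-153 and 4 of miR-210. Small RNA of whole bodies was sequenced at the embryo, larva, nymph and adult stages, in order of the life cycle. Each stage was 1 library from pooled animals, with over 3000 embryos, 2500 larvae, 1500 nymphs (protonymphs and deutonymphs together) and 1000 adults, and the labels name no strain, sex or age. No stage had a replicate, so the values compare these libraries and no test between stages is given. The 95% intervals show counting error alone, and reads that come from PCR are not independent of each other.

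A miRNA is cut from a hairpin whose 2 arms are named 5p and 3p, and one arm is usually kept while the other is degraded. It binds target messages mainly through its seed, bases 2 to 8, and lowers their output. In Drosophila, miR-7 acts in photoreceptor and sense organ formation and miR-210 is found in the visual system and in clock neurons. In mammals miR-137 and miR-153 are enriched in the brain, where miR-137 acts in neuronal maturation, and miR-210 is known as a miRNA of the response to low oxygen. Because whole bodies were sequenced, fewer cells of a type and less of a miRNA per cell cannot be told apart.

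The 8 listed sequences with at least 10 reads in all carry the values below, and are shown 5′ to 3′ in the DNA letters of the deposited lists, with the seed in capitals.
miR-7: tGGAAGACtagtgattttg
miR-7-5p: tGGAAGACtagtgatttt
miR-7-3p: cAAGAAATcgctagcttccg
miR-7i-3p: cAAGAAATcgctagcttccga
miR-137-3p: tTATTGCTtgagaatacacgt
miR-153: tTGCATAGtcacaaaagtgatg
miR-153-3p: tTGCATAGtcacaaaagtga
miR-210-3p: tTGTGCGTgtttcaagcggctg
The name miR-7 without an arm is the 5p arm, since miR-7-5p is the same sequence without its last base. In the same way miR-7i-3p is miR-7-3p with 1 more base, and miR-153-3p lacks the last 2 bases of miR-153. The 7 remaining names had at most 3 reads each. Among them were shorter forms of miR-137-3p, miR-137 (20 bases, 2 embryo reads) and miR-137a-3p (18 bases, 2 nymph reads). Relatives of miR-7 with a base change were listed only in the nymph, miR-7a-5p with 2 reads and the change A10G, and miR-7d-5p with 3 reads and G13A, counted from the 5′ end of miR-7. The miR-210 rows held 1 adult read of miR-210a-3p, which keeps the seed of miR-210-3p but differs from it at 10 of 22 bases set side by side from the 5′ end without gaps. Both also hold the stretch agcggctg near the 3′ end, offset by 1 base, so this count overstates how far the 2 sequences differ. The other arm of miR-210 was listed as miR-210-5p (1 larva and 1 adult read) and miR-210a-5p (3 nymph reads).

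The 15 names carry 6 seeds, and 0 of the other names in the lists carry any of them. No miRNA listed under another family number therefore shared a seed with these families. The listed arms of miR-7 can pair with each other. RNAduplex, a program of the ViennaRNA package, placed 16 of the 19 bases of miR-7 in pairs with miR-7-3p, G-U pairs included. For miR-210 it paired 19 of the 23 bases of miR-210-5p with miR-210-3p.

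Only 4 of the 15 names (miR-7, miR-7-5p, miR-153 and miR-210-3p) were listed in every library, and 7 in a single library. Length variants of the same miRNA were therefore joined into sequence groups, which gave 9 groups here and 372 over the whole series. The 5 main groups hold 5648 of the 5659 member reads, or 99.8%: miR-7 (with miR-7-5p), miR-7-3p (with miR-7i-3p), miR-137-3p, miR-153 and miR-210-3p. Levels are given per 1000000 reads (RPM), either of the listed miRNA reads (listed RPM) or of the larger library total (library RPM). The listed reads came to 248256, 1012278, 1258698 and 438409 from embryo to adult, which is 4.17%, 17.04%, 21.2% and 7.41% of library totals that differ little, so the scales disagree most where the embryo or the adult is compared. A listed name has at least 1 read. Where a group lacks a row in a library, 3 reads, or 2.38 to 12.1 listed RPM, are put in its place as a bound.

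Together the members were a small part of the listed miRNAs, smallest in the embryo and largest in the nymph. They took 122, 1254, 3294 and 989 reads from embryo to adult. As a share of listed reads this was 0.0491% (0.0408 to 0.0587), 0.124% (0.117 to 0.131), 0.262% (0.253 to 0.271) and 0.226% (0.212 to 0.240), so the adult stood near the nymph. As a share of the library total it was 0.00205%, 0.0211%, 0.0554% and 0.0167%, and on this scale the adult stood below the larva. In the order of sequence groups by reads, miR-7 ranked 36 in the embryo and 25 to 27 later, and miR-210-3p ranked 56, 34, 24 and 28 from embryo to adult. The miR-137-3p group ranked 135 in the embryo and 46 to 49 later, and miR-153 ranked 152 and then 53 to 67.

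**Figure D1:**
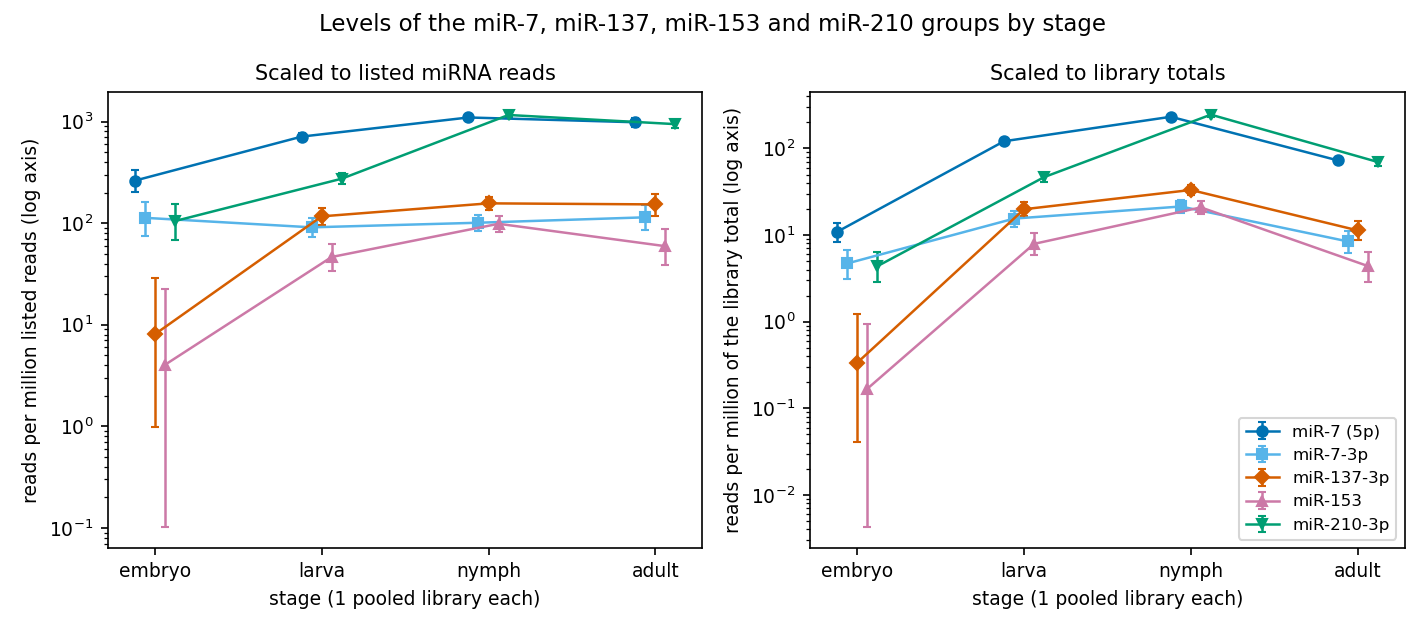
Level of the 5 main groups in each stage library, as reads per 1000000 listed reads (left) and per 1000000 of the library total (right), both on log axes; points are single libraries and bars are 95% Clopper-Pearson intervals of counting error. The miR-137-3p and miR-153 groups rest on 2 and 1 reads in the embryo. On the left miR-7-3p stays near 100 listed RPM, between 90.9 and 114.0, while the other 4 groups are lowest in the embryo. On the right all 5 groups, miR-7-3p included, are lowest in the embryo.

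The 5p arm of miR-7, the arm known to act in Drosophila sense organs and eyes, had 65 embryo reads, 719 larva reads, 1379 nymph reads and 431 adult reads. In listed RPM these were 261.8 (202.1 to 333.7), 710.3 (659.3 to 764.1), 1096 (1039 to 1155) and 983.1 (892.5 to 1080). The embryo was lowest and the nymph highest, and the adult and nymph were neighbours whose ratio, 0.897 (0.803 to 1.001), includes equality. The larva was 2.71-fold above the embryo (2.10 to 3.55) and the nymph 1.54-fold above the larva (1.41 to 1.69). In library RPM the levels were 10.9, 121.0, 232.0 and 72.8, and the larva was 11.1-fold above the embryo (8.60 to 14.5). The shorter form miR-7-5p made up 6.15% (1.70 to 15.0), 1.53% (0.766 to 2.72), 4.28% (3.27 to 5.48) and 4.18% (2.49 to 6.52) of this arm from embryo to adult. The larva share was lowest. Its interval lies below that of the nymph and overlaps those of the embryo and adult.

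The 3p arm of miR-7 had 28 embryo, 92 larva, 127 nymph and 50 adult reads, the nymph reads all under the name miR-7i-3p and the others all under miR-7-3p. Its 4 intervals overlap each other in listed RPM, with 112.8 (74.9 to 163.0), 90.9 (73.3 to 111.5), 100.9 (84.1 to 120.0) and 114.0 (84.7 to 150.4) from embryo to adult. In library RPM the values were 4.70, 15.5, 21.4 and 8.45, and the larva was then 3.30-fold above the embryo (2.14 to 5.23). The direction of its larva over embryo and adult over nymph differences turned between the scales.

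The balance of the arms does not depend on the scale, because both arms were counted in the same library. Among embryo reads the 3p arm took 28 of 93 miR-7 reads, or 30.1% (21.0 to 40.5). Its share of larva reads was 11.3% (9.24 to 13.7), of nymph reads 8.41% (7.05 to 9.92) and of adult reads 10.4% (7.81 to 13.5). The embryo interval lies wholly above those of the 3 later stages, and the later 3 overlap each other. Set against the 5p group, the 3p group was 0.297 times as frequent in the larva as in the embryo (0.178 to 0.507) and 0.269 times in the adult as in the embryo (0.154 to 0.479). The nymph over larva value was 0.720 (0.538 to 0.967) and the adult over nymph value 1.26 (0.873 to 1.79). There were thus 2.32 reads of the 5p arm for each read of the 3p arm in the embryo, and 7.82, 10.9 and 8.62 in the larva, nymph and adult.

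**Figure D2:**
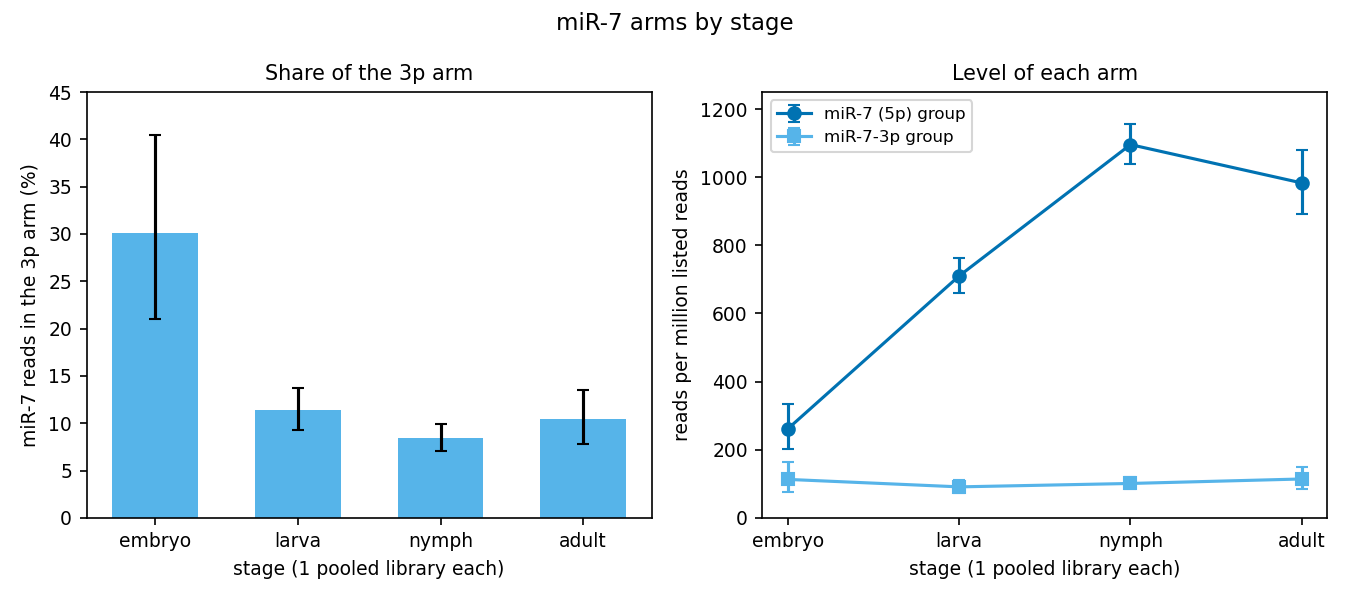
Share of miR-7 reads in the 3p arm (left, percent of all miR-7 reads) and listed RPM of each arm (right) in the 4 stage libraries, with 95% Clopper-Pearson intervals of counting error. The share is 30.1% in the embryo and between 8.41% and 11.3% later, where the 5p level is higher and the intervals of the 3p level overlap.

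The other families gave almost all their reads to the 3p arm. In miR-210 the 3p arm took 26 of 26 embryo reads, 277 of 278 larva reads, 1459 of 1462 nymph reads and 414 of 415 adult reads, so that the 5p arm held 0.360%, 0.205% and 0.241% in the last 3. The lists held no 5p name of miR-210 in the embryo and none of miR-137 or miR-153 in any library, although the miR-137-3p group had 197 nymph reads. A name that is not listed does not show that the arm was absent, since how reads were matched to names is not stated.

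Among the 5 joined groups, miR-210-3p differed most between larva and nymph. It had 26 embryo, 277 larva, 1459 nymph and 413 adult reads. In listed RPM the values were 104.7 (68.4 to 153.5), 273.6 (242.4 to 307.8), 1159 (1100 to 1220) and 942.0 (853.4 to 1037), and in library RPM 4.36, 46.6, 245.4 and 69.8. The 4 intervals in listed RPM do not overlap, and the nymph is highest on both scales. The nymph was 4.24-fold above the larva in listed RPM (3.72 to 4.83) and 5.26-fold in library RPM (4.63 to 6.01), which placed miR-210-3p at rank 6 of 88 groups by listed ratio. The groups ranked above it include miR-252b and miR-87-3p, which have no larva row, and miR-34-3p, with 1 larva read. The exact rank is therefore not resolved. The adult over larva ratio was 3.44 (2.95 to 4.02) in listed RPM but 1.497 (1.28 to 1.75) in library RPM, and the larva over embryo ratio was 2.61 (1.75 to 4.07) and 10.7 (7.14 to 16.6).

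The make-up of the families therefore turned from miR-7 toward miR-210 between larva and nymph. Reads of miR-210 were 21.3% (14.4 to 29.6) of member reads in the embryo and 22.2% (19.9 to 24.6) in the larva, against 44.4% (42.7 to 46.1) in the nymph and 42.0% (38.9 to 45.1) in the adult. Per read of the miR-7 5p group there were 0.400 and 0.385 reads of miR-210-3p in the embryo and larva, and 1.06 and 0.958 in the nymph and adult. The nymph over larva change of this quotient was 2.75-fold (2.34 to 3.23), whereas larva over embryo gave 0.963 (0.588 to 1.62) and adult over nymph 0.906 (0.774 to 1.06). This quotient has no scaling in it.

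miR-137-3p and miR-153 were close to the limit of detection in the embryo. miR-137-3p had 2 embryo reads, under the 20-base name miR-137, and 118 larva, 197 nymph and 67 adult reads. Its listed RPM was 8.06 (0.976 to 29.1), 116.6 (96.5 to 139.6), 156.5 (135.4 to 180.0) and 152.8 (118.4 to 194.1). The later 3 libraries lie close together, with an adult over nymph ratio of 0.976 (0.729 to 1.29) and an adult over larva ratio of 1.31 (0.957 to 1.78), and all 3 lie above the embryo. The larva over embryo ratio was 14.5 (3.92 to 120.9), the highest of the 78 groups compared, and its width comes from the 2 embryo reads. The interval includes the ratios of miR-87 (13.8) and miR-34-5p (11.4), so the rank itself is not resolved. In library RPM the levels were 0.336, 19.9, 33.1 and 11.3.

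miR-153 had 1 embryo read, 47 larva reads, 104 nymph reads with 20 more of miR-153-3p, and 26 adult reads. Its listed RPM was 4.03 (0.102 to 22.4), 46.4 (34.1 to 61.7), 98.5 (81.9 to 117.5) and 59.3 (38.7 to 86.9), with the nymph highest and the larva and adult overlapping. The larva over embryo ratio was 11.5 (1.97 to 465), the nymph over larva ratio 2.12 (1.51 to 3.04) and the adult over nymph ratio 0.602 (0.378 to 0.924). In library RPM the levels were 0.168, 7.91, 20.9 and 4.39. The 20-base form miR-153-3p was 6 of 47 larva reads, 20 nymph reads beside 104 of the longer form, and 7 of 26 adult reads, or 12.8% (4.83 to 25.7), 16.1% (10.1 to 23.8) and 26.9% (11.6 to 47.8), intervals that overlap.

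The groups were then set against all sequence groups by 1 rule. A group was compared when both libraries together held 30 or more of its reads, and called higher or lower when its interval lay wholly past 2-fold. With 2 and 1 embryo reads, miR-137-3p and miR-153 could reach 30 reads only through the later library. Against the embryo they could therefore be called higher or not at all, and the member counts below include them. In the larva over embryo comparison 2 of the 5 member groups, miR-7 and miR-137-3p, were called higher in listed RPM, where 20.5% of the 78 groups were. In library RPM all 5 were called higher, where 44.9% were. The median log2 ratio of the 5 was 1.44 in listed RPM, against -1.02 over all 78 groups, and 3.47 against 1.01 in library RPM. The 78 groups include names such as miR-122-5p, miR-451-5p and miR-486, at -1.79, -2.21 and -1.84 in listed RPM. In library RPM these 3 stood at 0.25, -0.18 and 0.20. Whether every listed name is a miRNA of the mite was not tested, so the shares and medians over all groups describe the deposited lists. The miR-7 and miR-137-3p calls held under all 5 scalings tried. The calls of miR-153 and miR-210-3p held under the 4 scalings other than listed RPM, and that of miR-7-3p with the library totals alone.

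In nymph over larva miR-210-3p was the one member group of 5 called higher, under all 5 scalings, where 12.5% of 88 groups were called higher in listed RPM and 19.3% in library RPM. The median log2 ratio of the 5 was 0.63, against 0.41 over all groups. In adult over nymph 0 of 5 were called in listed RPM, where 10.2% of 88 groups were called higher and 10.2% lower. The members' median log2 ratio was -0.16 and that of all groups 0.33. In library RPM 4 of the 5 were called lower in the adult, all but miR-7-3p, where 45.5% were. miR-153 stood at 0.211 (0.132 to 0.323) and miR-210-3p at 0.284 (0.254 to 0.317) on that scale, and the median log2 ratio of all groups was itself -1.18.

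Across the ends of the cycle, miR-7, miR-137-3p and miR-210-3p were called higher in the adult than in the embryo under all 5 scalings, 3 of 4 member groups with enough reads. The share over 74 groups was 28.4% in listed RPM and 29.7% in library RPM. Their listed ratios were 3.75 (2.89 to 4.95), 19.0 (5.05 to 159.9) and 8.99 (6.05 to 13.9), and miR-7-3p stood at 1.01 (0.624 to 1.67). In nymph over embryo the same 3 groups and miR-153 were called higher, 4 of 5 in listed RPM against 30.6% of 85 groups, and 5 of 5 in library RPM against 52.9%. The counts against the embryo include miR-137-3p and, in the nymph, miR-153, which could not have been called lower. In adult over larva miR-210-3p alone of the 5 was called higher in listed RPM, against 27.2% of 81 groups. That call held when miR-1 was left out of the totals, but was lost with the library totals (1.497), TMM (1.92) and median of ratios (1.78). In library RPM 0 of 5 were called lower, where 24.7% were.

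**Figure D3:**
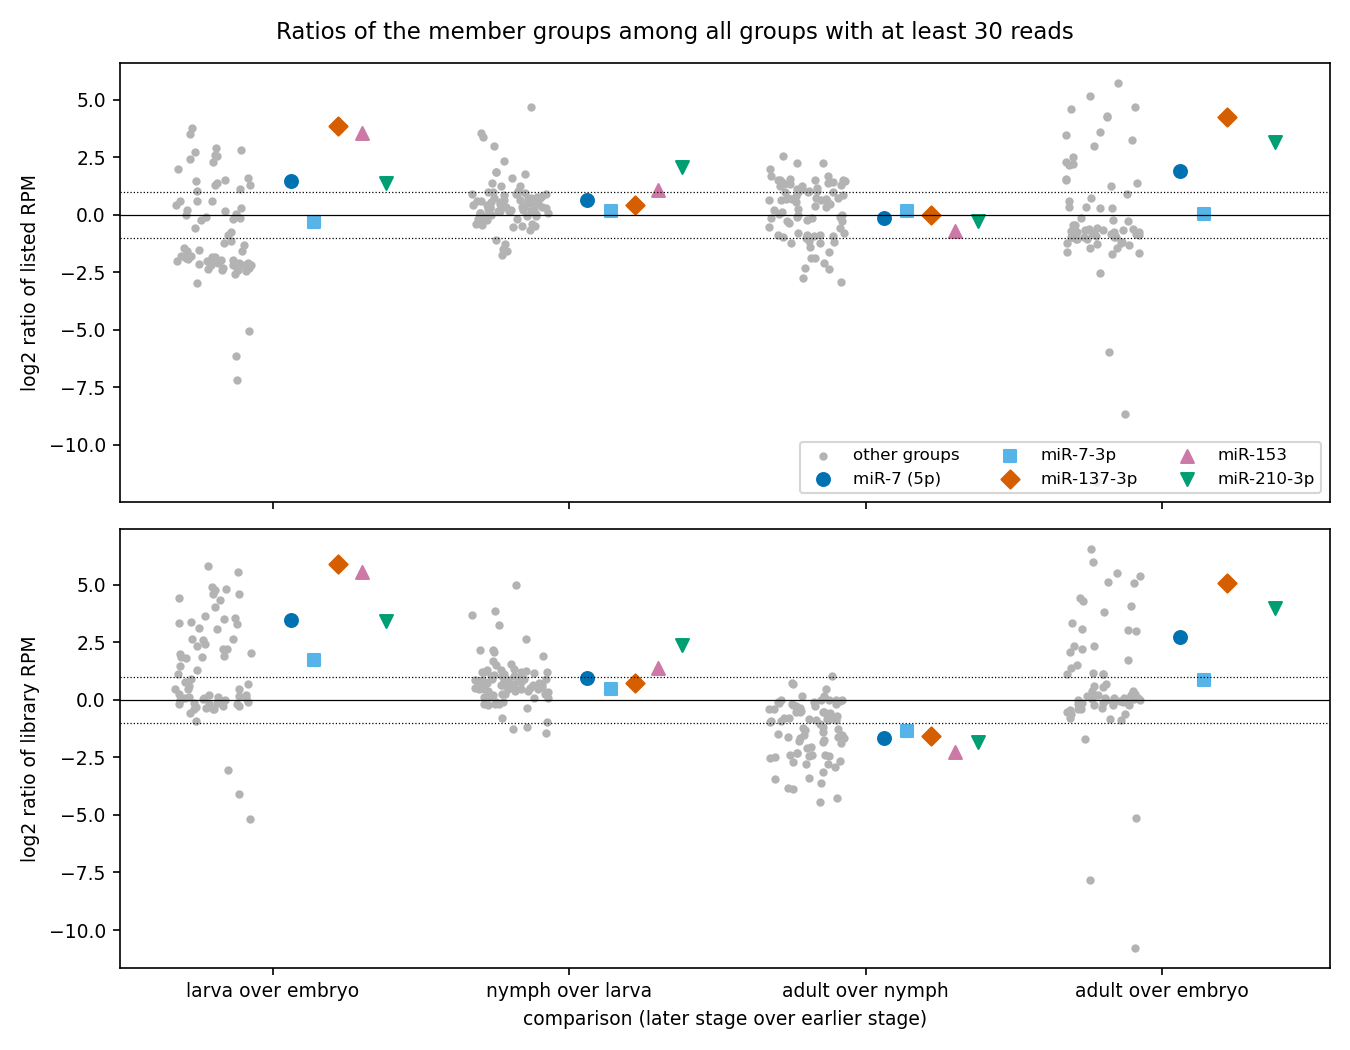
Log2 ratio of each member group (coloured) and of every other sequence group with at least 30 reads over both libraries (grey) in 4 comparisons, in listed RPM (top) and library RPM (bottom); each point is 1 group, dotted lines mark 2-fold, and a group without a row in one library is drawn at its bound against 3 reads. In larva over embryo 4 of the 5 member groups lie above 0 on the listed scale, where the median of all 78 groups is -1.02. All 5 lie above 0 on the library scale, where that median is 1.01. In adult over nymph all 5 lie below 0 on the library scale, where the median of all 88 groups is -1.18. On the library scale most groups thus share the direction of the members in both comparisons.

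Set against miR-124-3p, a neuronal miRNA across animals, the main groups other than miR-7-3p were less frequent in the embryo than later. The miR-124-3p group had 3306, 11848, 27437 and 5236 reads from embryo to adult. Its own listed ratio was 0.879 (0.846 to 0.914) in larva over embryo, 1.86 (1.82 to 1.90) in nymph over larva and 0.548 (0.532 to 0.564) in adult over nymph. The last stood at rank 69 of 88 groups, so most groups gained on miR-124-3p there. The quotients below change with miR-124-3p as well as with the members. Per 1000 miR-124-3p reads there were 19.7, 60.7, 50.3 and 82.3 reads of miR-7 from embryo to adult. In that order miR-210-3p had 7.86, 23.4, 53.2 and 78.9, miR-137-3p 0.605, 9.96, 7.18 and 12.8, and miR-153 0.302, 3.97, 4.52 and 4.97. The larva over embryo change of this quotient was 3.09-fold for miR-7 (2.38 to 4.05), 2.97-fold for miR-210-3p (1.98 to 4.64), 16.5-fold for miR-137-3p (4.45 to 137.6) and 13.1-fold for miR-153 (2.24 to 529). For miR-7-3p it was 0.917 (0.594 to 1.46). In nymph over larva it was 2.27-fold for miR-210-3p (1.995 to 2.60), but 0.828 for miR-7 (0.754 to 0.910), 0.721 for miR-137-3p (0.570 to 0.915) and 0.596 for miR-7-3p (0.452 to 0.789). The listed ratios of the last 3 groups were 1.54, 1.34 and 1.11 there, so they fell only relative to miR-124-3p on that scale. In adult over nymph miR-7, miR-210-3p and miR-137-3p were more frequent per miR-124-3p read, by 1.64-fold (1.46 to 1.83), 1.48-fold (1.32 to 1.66) and 1.78-fold (1.33 to 2.37), while miR-153 gave 1.10 (0.690 to 1.69). The listed ratios of miR-7, miR-210-3p and miR-137-3p in that comparison were 0.897, 0.813 and 0.976, so they gained only relative to miR-124-3p. Per miR-124-3p read the 3p arm of miR-7 gave 2.06 (1.45 to 2.89) in adult over nymph, but 0.547 (0.360 to 0.856) in nymph over embryo.

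**Figure D4:**
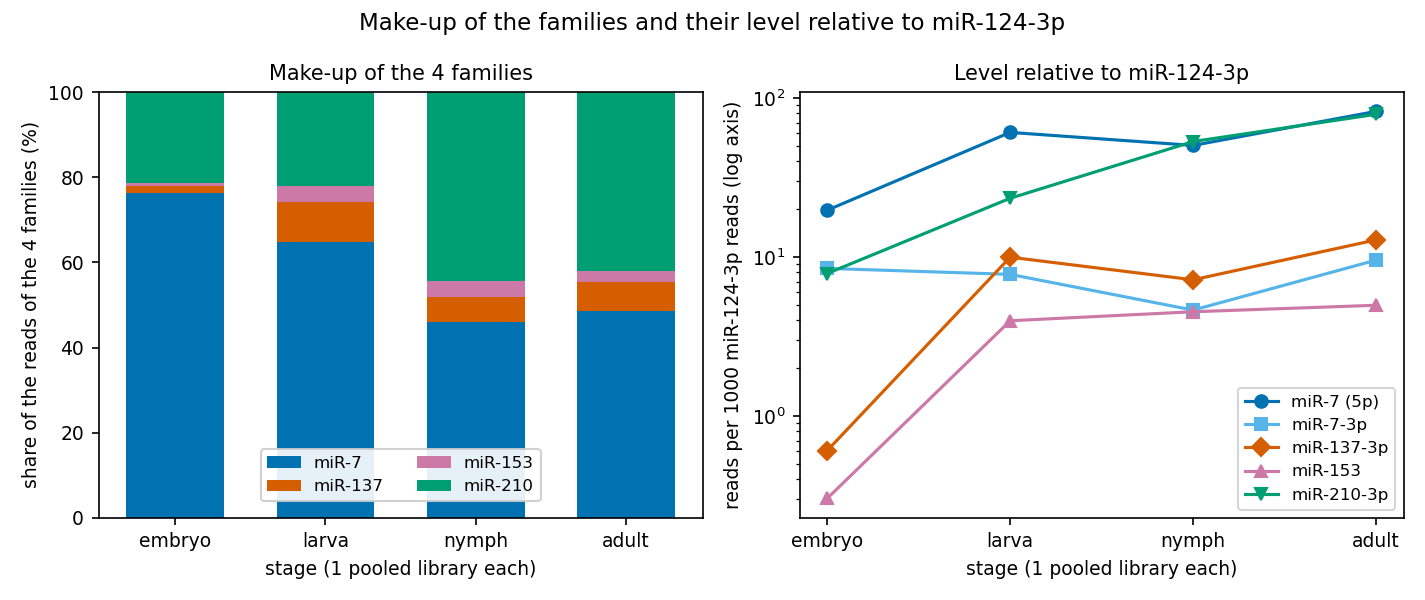
Share of each family in the reads of all 15 names (left, percent) and reads of each group per 1000 miR-124-3p reads on a log axis (right) in the 4 stage libraries, neither of which depends on how libraries are scaled. miR-210 takes 22.2% in the larva and 44.4% in the nymph, and miR-137-3p and miR-153 have 0.605 and 0.302 reads per 1000 in the embryo.

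The list of other neuron and sense organ miRNAs, itself chosen with earlier results of these data known, had 12 of its 23 families in the deposited lists, in 40 sequence groups, most with few reads. In larva over embryo 4 of 12 groups with enough reads were called higher and 2 lower in listed RPM, where 20.5% of all groups were called higher and 44.9% lower, and the list's median log2 ratio was 0.45. The higher ones were led by miR-87 (13.8-fold, 10.4 to 18.7), which acts in dendrite regeneration in Drosophila, and miR-34-5p (11.4-fold, 10.6 to 12.2). The lower ones were miR-279-3p, at a ratio of 0.268 (0.260 to 0.276), and miR-9a-3p, at 0.399 (0.346 to 0.460), and neither was called with the library totals. The count was 3 higher and 1 lower of 14 in nymph over larva, where 12.5% and 3.41% of all groups were called. Among the 3, miR-87-3p (39 nymph and 0 larva reads) and miR-34-3p (32 and 1) reached 30 reads only through the nymph. On either scale they could be called higher there or not at all. The list had 1 higher and 4 lower of 13 in adult over nymph, against 10.2% and 10.2%. The lower ones there include miR-34-3p (0 adult and 32 nymph reads), which could not have been called higher on either scale. In adult over embryo the count was 4 and 2 of 10, against 28.4% and 9.46%. With the library totals the list had 8 higher and 0 lower in larva over embryo, against 44.9% and 3.85% of all groups, and 4 and 1 in nymph over larva, against 19.3% and 2.27%. It then had 0 and 11 in adult over nymph, against 0% and 45.5%, and 4 and 1 in adult over embryo, against 29.7% and 5.41%. The median of the member groups had the direction of this list's median in listed RPM in 3 of the 4 comparisons for which the list was counted. The exception was adult over embryo, where the members stood at 2.54 and the list at -0.40, but with the library totals the members stood at 3.37 and the list at 0.43. In nymph over larva the listed median of all groups, 0.41, had the same direction too. In adult over nymph the members' listed median is the ratio of miR-7, whose interval includes equality, so its direction is not resolved.

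The groups with the most similar profiles were found by the root mean square distance of centred log2 levels over the 4 libraries, a measure in which the scaling drops out. Among groups with at least 30 reads in every library, miR-7 lay nearest to the growth miRNA bantam, at 0.18 among 48 candidates, followed by miR-5735-3p at 0.25 and miR-190-5p at 0.31. miR-153 lay nearest to miR-87 at 0.28 and miR-137-3p to miR-3931 at 0.39, distances that rest on 1 and 2 embryo reads. miR-210-3p lay nearest to bantam, but at 0.55, with miR-3931 at 0.56 and miR-7 at 0.68.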

How the data were processed

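Small RNAs of 18 to 30 bases were cut from a gel, ligated, amplified and sequenced on a Solexa instrument, per the labels' protocols. For each library the authors deposited known miRNA names, each with its whole-number read count, its sequence and a normalized value. The deposited normalized values are RPM: count divided by value gave 1 total in all rows of a library, 5918115 to 5957910 reads, used as the library total. What the total covers, how reads were matched and to which miRNA reference and build is not given in the sources used here.

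The members and lists were chosen with earlier results of these data known. The neuron and sense organ list held miR-9, miR-79, miR-34, miR-87, miR-96, miR-124, miR-128, miR-132, miR-138, miR-182, miR-183 and miR-190. It also held miR-219, miR-263, miR-276, miR-279, miR-284, miR-285, miR-932, miR-958, miR-980, miR-996 and miR-1000. Names of 1 family number were joined to the most abundant name when their overlap agreed over at least 17 bases. Names without a miR number were joined only when they differed by no more than an arm suffix. Thus bantam and bantam-1, and let-7 and its lettered forms, count as separate groups in the totals and shares over all groups. Shares have Clopper-Pearson 95% intervals, ratios of libraries exact conditional binomial ones, and quotients of 2 groups exact conditional odds ratio intervals (Python 3.11.15, SciPy 1.17.1). The intervals and the calls were run on reads simulated for single names with counting error alone. That run cannot show how they behave with PCR or between-library variation. Alternatives were the library totals, TMM (edgeR 4.0.16), median-of-ratios (DESeq2 1.42.0), totals without miR-1, single names and sums by family number. Pairs came from RNAduplex 2.7.2. Arms were taken from names or from overlap. Named were all members, the 3 nearest profiles per family with fuller reads, and up to 3 groups of the neural list per direction, of which the leading ones are given. Replicate-based tests were not used, since each stage has 1 library.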

Additional observations from a re-analysis of the deposited data

How the results depend on the processing

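The scaling decides most of what can change. With the library totals the median log2 ratio of all groups moved by 2.03 in larva over embryo, 0.31 in nymph over larva, -1.52 in adult over nymph and 0.83 in adult over embryo. In larva over embryo the library totals, TMM, median of ratios and totals without miR-1 gave miR-7-3p 3.30, 2.09, 2.46 and 1.30, against 0.806 in listed RPM. In the same order they gave miR-153 47.1, 29.9, 35.3 and 18.6, and miR-210-3p 10.7, 6.78, 7.99 and 4.21, all called. Summing all miR-7 names gave 2.14 and ended the miR-7 call. In nymph over larva miR-7-3p stood at 0.974 under TMM and 0.971 under median of ratios. Taken by its leading name alone, which has no nymph row, it was at most 0.0262 there and at least 47.9 in adult over nymph. With the library totals adult over nymph ratios were 0.314 for miR-7, 0.342 for miR-137-3p, 0.211 for miR-153, 0.284 for miR-210-3p and 0.395 for miR-7-3p, the last 0.718 under TMM and 0.668 under median of ratios. In adult over larva the library totals, TMM and median of ratios turned miR-7 to 0.602, 0.771 and 0.716, miR-7-3p to 0.546, 0.699 and 0.649, miR-137-3p to 0.570, 0.731 and 0.678, and miR-153 to 0.555, 0.712 and 0.660. The miR-210-3p call in that comparison was lost under these 3 scalings, at 1.497, 1.92 and 1.78. In nymph over embryo miR-7-3p turned to 4.55, 2.04, 2.39 and, without miR-1, 1.46. The cause of these shifts was not tested. Of 172 ratios under alternatives, 129 kept direction and call.

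Counts of all groups moved too. Those by name run over more units, with 594 names against 372 groups in the whole series, so they cannot be read as changes in a share. Larva over embryo had 16 higher and 35 lower in listed RPM, and 35 and 3, 29 and 3, and 33 and 3 under the library totals, TMM and median of ratios, 13 lower without miR-1 and 30 higher by name. Nymph over larva had 11 and 3, against 17 higher with the library totals and 26 and 12 by name. Adult over nymph had 9 and 9, against 0 and 40 under the library totals, 2 and 21 under TMM, 2 and 23 under median of ratios and 17 and 24 by name. Adult over embryo had 21 and 7, against 34 and 17 by name and 4 lower with the library totals, median of ratios or totals without miR-1. Without miR-1 the members took 0.0612%, 0.248%, 0.533% and 0.426% of listed reads from embryo to adult. If only names with an arm are counted, which drops the main name miR-7, the 3p share of miR-7 becomes 87.5%, 89.3%, 66.5% and 73.5%. No paired analysis was possible because each stage has 1 library. The embryo, with 122 member reads, limits every comparison that uses it.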
